A study of Mus musculus with 14 samples.

Results

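The complement system is described here through 34 mouse genes, listed by name and covering the proteins of its activation pathways, their regulators and their receptors. Of these, 33 were found among the 24732 features of the count tables. C1s1 was not found under that name, and a feature named C1s, which RefSeq gives as a synonym of C1s1, is reported beside the members without being counted among them. The members fall into 7 roles: the C1 complex (4 of 5 found), the lectin pathway (6), C2 and C4 (2), C3 and the alternative pathway (4), the terminal pathway (7), regulators (7) and anaphylatoxin receptors (3).

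Complement is a cascade of plasma proteins that tags and lyses targets and recruits leukocytes. Antibody-bound C1, mannose-binding lectins or spontaneous turnover of C3 lead to C3 cleavage, and C3 cleavage leads to C5 cleavage and to assembly of the membrane attack complex from C5b to C9. Hepatocytes make most circulating complement, macrophages are the main source of C1q, adipocytes make factor D, and complement components are deposited in the arterial wall during atherosclerosis.

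Transcript 3′ ends were sequenced (Lexogen QuantSeq V2) from aorta and liver of HuBL and BT3xHuBL mice aged 52 weeks and kept on normal laboratory diet. The groups were HuBL aorta (3 libraries), BT3xHuBL aorta (3), HuBL liver (4) and BT3xHuBL liver (4). Neither strain name is explained by the labels. As used in earlier publications, HuBL stands for a transgene of human apolipoprotein B combined with loss of the LDL receptor, which both genotypes here would share, and BT for lines whose T cells are given a receptor against human apolipoprotein B. The labels do not state whether each library of a group is a different animal, and p-values therefore reflect only how much these libraries varied.

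Total counts ran from 41933263 to 65539765 in the aorta libraries and from 13228123 to 17992459 in the liver libraries, so genes of low level were measured more precisely in aorta. The numbers that name the libraries form separate blocks in aorta and liver, so tissue and any difference tied to those blocks cannot be told apart. Levels are given as CPM, counts relative to the effective size of the library, on a scale joint to all 14 libraries, and since each transcript yields tags from its 3′ end only, levels of different genes were compared without a length correction. The tissue labels were checked against marker genes: albumin (Alb) lay between 0 and 0.465 CPM in aorta against at least 96993 CPM in liver, the Kupffer cell marker Clec4f was at 0 in all aortas and at 77.5 to 176 CPM in liver, and smooth muscle actin (Acta2) lay between 3202 and 4651 CPM in aorta against at most 11.6 CPM in liver. Transcripts for receptor variable segments totalled 2 to 16 counts per liver library and 298 to 516 per aorta library, and the labels do not name the segments of the transgenic receptor, so the genotype labels could not be checked with it.

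The first comparison asked which tissue held the transcripts of each complement gene. In HuBL mice 31 of the 33 members differed between aorta and liver at an adjusted p under 0.05 (edgeR quasi-likelihood test, Benjamini-Hochberg adjustment over all features), 9 higher in aorta and 22 higher in liver. The background is high, because 83.7% of all 14445 features tested differed between the tissues, 44.5% higher and 39.2% lower in aorta. In BT3xHuBL mice the same 9 members were higher in aorta and the same 22 higher in liver, against 82.1% of all features called, 42.5% higher and 39.5% lower. The 9 were C1qa, C1qb, C1qc, C3ar1, C5ar1, C5ar2, C7, Cfd and Cfp. The groups of the 31 called members did not overlap in either genotype (background 82.8% in HuBL and 82% in BT3xHuBL). Clu and Cd55 were called in neither. The members' median log2 ratio of aorta over liver was -3.29 in HuBL and -2.70 in BT3xHuBL with genes of 0 aorta counts set at their bound, while the median fitted difference over all features was 0.10 and 0.04. In whole tissue, fewer cells of a type and less RNA per cell cannot be told apart.

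**Figure D1:**
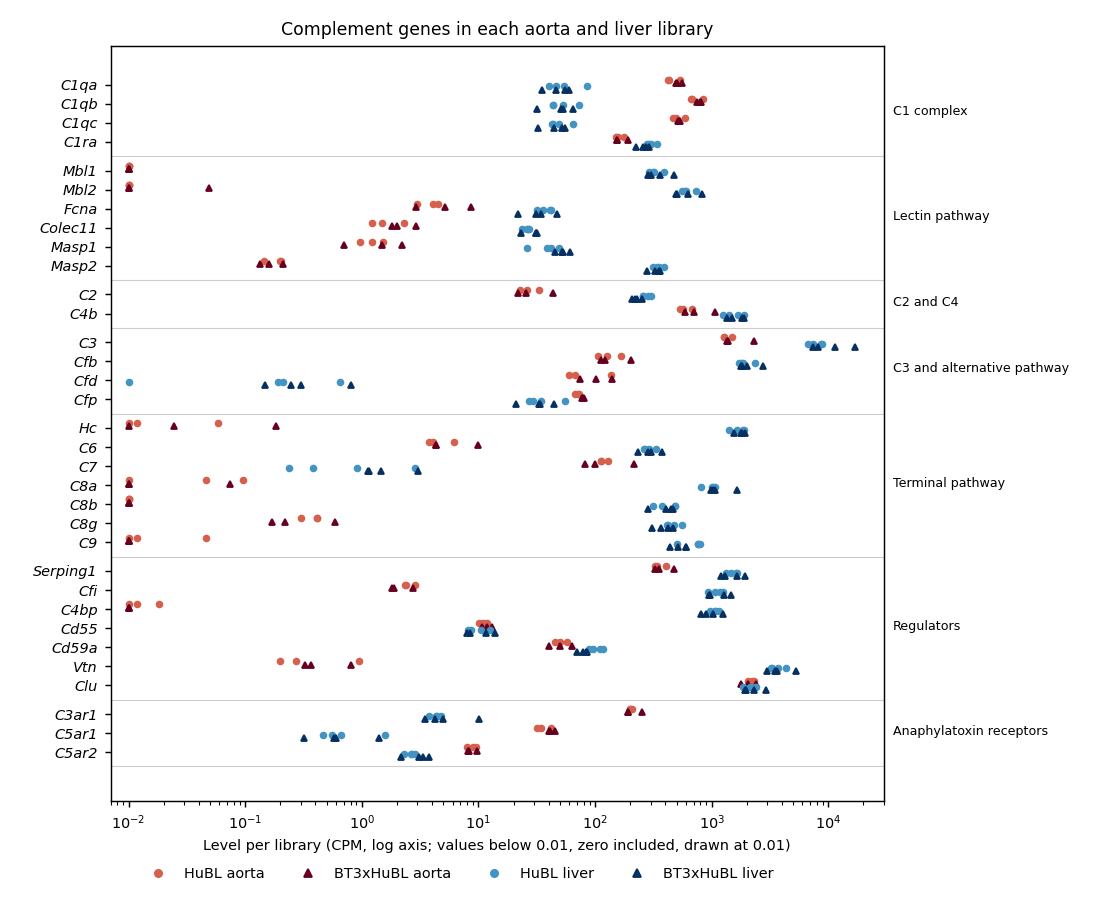
Level of each of the 33 complement genes in each of the 14 libraries, in CPM on a log axis, ordered by role. Circles are HuBL and triangles BT3xHuBL, red aorta and blue liver. C1q chains, C7, Cfd, Cfp and the 3 receptors lie to the right in aorta, Clu and Cd55 overlap, and Mbl1, Mbl2, C8a, C8b, C9, Hc and C4bp sit near the left edge in aorta.

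The C1 complex starts the classical pathway: C1q, built of A, B and C chains, binds antibody, and the proteases C1r and C1s are then activated. The 3 C1q chain genes were high in aorta in every library. C1qb stood at 671, 843 and 659 CPM in HuBL aorta and at 791, 804 and 754 CPM in BT3xHuBL aorta, against 73.3, 52.8, 43.7 and 43.7 CPM in HuBL liver and 64.5, 51.3, 31.9 and 53 CPM in BT3xHuBL liver. The lowest aorta exceeded the highest liver by a wide margin, and the fitted log2 difference was 3.75 (SE 0.19, adjusted p = 7.1e-09, edgeR) in HuBL and 3.93 (SE 0.22, adjusted p = 1.6e-07) in BT3xHuBL. C1qa averaged 463 ± 64.2 CPM in HuBL aorta (SD, n = 3) against 56.3 ± 19.7 CPM in HuBL liver (n = 4), and C1qc 518 ± 67.9 against 50.2 ± 10.1 CPM. The macrophage marker Csf1r was also higher in aorta, at 154 to 198 CPM against 30.3 to 52.4 CPM in liver, and Cd68 at 326 to 403 CPM against 9.01 to 16.7 CPM. The proteases went the other way: C1ra averaged 161 ± 14.4 CPM in HuBL aorta and 304 ± 24.8 CPM in HuBL liver, a fitted difference of -0.93 (SE 0.11, adjusted p = 6.5e-06, edgeR). C1s, the feature outside the list, averaged 300 ± 17.6 CPM in HuBL aorta and 903 ± 34.8 CPM in HuBL liver. C1ra has a near-identical copy, C1rb, so reads could be split between them, but C1rb lay at or under 1.58 CPM in every library.

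The 3 C1q genes lie side by side on mouse chromosome 4 (GENCODE M21, GRCm38), with gaps of 2.9 kb between C1qa and C1qc and of 3.6 kb between C1qc and C1qb, all on the reverse strand. The proportion of C1qb to the other chains differed between the tissues, a pattern chosen after the values were seen, while C1qc over C1qa overlapped, at 0.948 to 1.17 in aorta and 0.765 to 1.07 in liver. The ratio of C1qb to C1qa counts lay between 1.44 and 1.60 in the 6 aortas and between 0.867 and 1.12 in the 8 livers, without overlap. The ratio of C1qb to C1qc lay between 1.37 and 1.42 in HuBL aorta, between 1.47 and 1.52 in BT3xHuBL aorta and between 0.988 and 1.17 in liver. In this ratio both aorta genotypes stood apart from each other and from liver, which is described without a test. C1qc over C1qa, which shares C1qc with that ratio, also set the aorta genotypes apart, at 1.08 to 1.17 in HuBL and 0.948 to 1.05 in BT3xHuBL. Among single features, 9.36% separated the aorta genotypes, and the share for ratios was not computed. No C1q chain was called for genotype in aorta (C1qa 0.15, C1qb 0.10 and C1qc 0.001 on the log2 scale). Relative to macrophage markers, C1qa over Csf1r was 2.56 to 3.16 in aorta and 1.06 to 1.83 in liver, whereas C1qa over Cd68 was 1.07 to 1.69 in aorta and 2.82 to 5.25 in liver. The direction of C1q relative to macrophage transcripts therefore depends on the marker chosen.

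**Figure D2:**
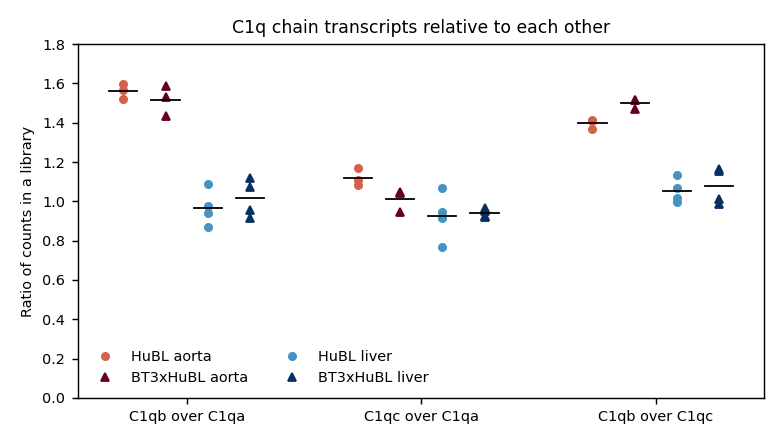
Ratio of the counts of pairs of C1q chain genes within each library, with circles for HuBL, triangles for BT3xHuBL and black bars for group means. The C1qb over C1qa ratio is 1.44 to 1.60 in aorta and 0.867 to 1.12 in liver. C1qb over C1qc separates the tissues and also the aortas of both genotypes. C1qc over C1qa separates the aortas of both genotypes but overlaps between the tissues.

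For C1qb, among the aorta genes, the 250 bases before the transcription start are printed from RefSeq (GRCm38.p6, 5′ to 3′) with a match to GAGGAA, the core that ETS factors of the PU.1 type bind, in capitals.
C1qb, chr4:136886201-136886450, reverse strand: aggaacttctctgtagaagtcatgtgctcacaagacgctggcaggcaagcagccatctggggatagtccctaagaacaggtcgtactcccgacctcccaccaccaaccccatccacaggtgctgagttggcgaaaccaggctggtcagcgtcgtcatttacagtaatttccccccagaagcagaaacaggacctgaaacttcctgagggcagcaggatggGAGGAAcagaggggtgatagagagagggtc
The match lies 30 to 25 bases before the RefSeq start. GENCODE M21 starts C1qb further downstream, at base 136886187, so the distance depends on the annotation. GAGGAA, searched on both strands, occurs in 23.3% of the 32851 windows of this table and in 5 of the 26 members that have a window (C1qb, C1qc, Cd59a, C5ar2 and Fcna), so the match is common. Among members with a window, it occurs in 2 of the 16 called higher in liver and 3 of the 8 called higher in aorta. A member was counted if any of its windows matched, whereas the percentage counts single windows. The share of windows and the count of members are therefore not like for like.

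The lectin pathway recognises sugars on microbes and damaged cells through mannose-binding lectins (Mbl1, Mbl2), ficolin A (Fcna) and the collectin Colec11, which activate the proteases Masp1 and Masp2. All 6 genes were higher in liver, and their summed level was 6.18 to 14 CPM in aorta against 1177 to 1793 CPM in liver. Mbl1 gave 0 counts in all 6 aortas against 15865 counts in the 4 HuBL livers, so its mean level was at least 24600-fold higher in liver, taking 3 counts over the HuBL aortas as the limit. Mbl2 gave 0 counts in HuBL aorta, 4 counts in BT3xHuBL aorta, and 30083 and 31473 counts in the livers of the 2 genotypes. Masp2 averaged 0.182 ± 0.0318 CPM in HuBL aorta (n = 3) and 349.5 ± 32.2 CPM in HuBL liver (n = 4). Fcna, Colec11 and Masp1 were measurable in aorta, with group means of 1.24 to 5.58 CPM against 25.9 to 52.8 CPM in liver. Fcna, a product of macrophages, thus went against C1q in its tissue order, at 2.90 to 8.65 CPM in aorta and 21.8 to 47.4 CPM in liver.

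The promoters of Mbl1 and Mbl2, which lie on chromosomes 14 and 19, are printed because both genes were at or near 0 in aorta. Capitals mark the longest run of letters that the windows share.
Mbl1, chr14:41151206-41151455, forward strand: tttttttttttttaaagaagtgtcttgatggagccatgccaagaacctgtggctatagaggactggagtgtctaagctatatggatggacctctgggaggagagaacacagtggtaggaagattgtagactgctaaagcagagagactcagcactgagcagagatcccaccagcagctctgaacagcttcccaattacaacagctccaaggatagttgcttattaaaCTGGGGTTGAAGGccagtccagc
Mbl2, chr19:30232678-30232927, forward strand: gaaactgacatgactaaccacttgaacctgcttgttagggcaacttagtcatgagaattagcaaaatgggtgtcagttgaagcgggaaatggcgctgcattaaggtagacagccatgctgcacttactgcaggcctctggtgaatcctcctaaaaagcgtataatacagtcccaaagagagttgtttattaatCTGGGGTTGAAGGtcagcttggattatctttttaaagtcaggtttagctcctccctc
The shared 13 bases, CTGGGGTTGAAGG, end 11 bases before the RefSeq start in Mbl1 and 45 bases before it in Mbl2. They occur on either strand in 3 of the 32851 windows, those of Mbl1, Mbl2 and Slc25a53. GENCODE M21 starts Mbl1 at base 41151458 and Mbl2 at base 30232942, both further downstream, so these distances depend on the annotation.

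C2 and C4 form the C3 convertase of the classical and lectin pathways. C4b averaged 593 ± 79.2 CPM in HuBL aorta and 1552 ± 285 CPM in HuBL liver (fitted log2 difference -1.41, SE 0.17, adjusted p = 1.0e-05, edgeR), a smaller difference than any other member higher in liver but C1ra and Cd59a. C2 averaged 27.3 ± 5.38 CPM in HuBL aorta and 276 ± 19.9 CPM in HuBL liver (-3.35, SE 0.15, adjusted p = 1.2e-09). C2 lies 86 bases from Cfb on chromosome 17, and C4b 112.5 kb from Cfb. C4b has a near-identical copy, C4a, which stood at 2.04 to 3.95 CPM in aorta and 14.3 to 64.4 CPM in liver, so part of its reads may belong to either gene.

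C3 is the protein on which all activation pathways meet, and with factor B (Cfb), factor D (Cfd) and properdin (Cfp) it forms the alternative pathway loop. This group was divided between the tissues. C3 stood at 1274, 1506 and 1283 CPM in HuBL aorta and at 2327, 1344 and 1376 CPM in BT3xHuBL aorta. In liver it stood at 8795, 8684, 7333 and 6712 CPM in HuBL and at 8230, 11400, 7320 and 16824 CPM in BT3xHuBL. Every liver exceeded every aorta, and BT3xHuBL aorta replicate 1 and BT3xHuBL liver replicate 4 were the highest of their tissues. The fitted log2 difference was -2.56 (SE 0.17, adjusted p = 4.3e-08, edgeR) in HuBL and -2.73 (SE 0.37, adjusted p = 8.5e-05) in BT3xHuBL. Cfb, which carries the convertase's protease, averaged 133 ± 30.4 CPM in HuBL aorta and 1922 ± 284 CPM in HuBL liver. C3 and Cfb, like Masp2, carry a mark for overlapping genes in the tables, so part of their reads could belong to a neighbour. The macrophage marker Csf1r carries the same mark, so ratios to Csf1r share this limit.

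Cfd and Cfp went the other way. Cfd, the protease adipsin that cleaves factor B, stood at 59.9, 137 and 66.9 CPM in HuBL aorta and at 141, 102 and 74.9 CPM in BT3xHuBL aorta, while the 8 livers held 0 to 0.804 CPM. Its mean was 336-fold higher in aorta in HuBL and 283-fold higher in BT3xHuBL, on 12 and 19 liver counts. Leaving out liver replicate 3, the highest liver for Cfd in each genotype, moved the fitted log2 difference from 8.43 to 9.30 in HuBL and from 8.12 to 8.79 in BT3xHuBL. Adiponectin (Adipoq), made by adipocytes, stood at 16.8 to 51.8 CPM in aorta and at or under 0.0818 CPM in liver; its part in the Cfd level was not tested. Cfp, which stabilises the alternative pathway convertase, stood at 70.9, 72.6 and 67.7 CPM in HuBL aorta, at 79, 80.8 and 77.4 CPM in BT3xHuBL aorta, at 55.1, 34.1, 27 and 29.4 CPM in HuBL liver and at 33.5, 33.2, 21.2 and 44.8 CPM in BT3xHuBL liver. Its tissue difference was small beside those of the other called members higher in aorta (0.93, SE 0.21, adjusted p = 0.0023, edgeR, in HuBL).

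The C3 promoter is printed because C3 led the liver members in level, with a match to TTGCNNAA, a motif of C/EBP factors, in capitals.
C3, chr17:57228137-57228386, reverse strand: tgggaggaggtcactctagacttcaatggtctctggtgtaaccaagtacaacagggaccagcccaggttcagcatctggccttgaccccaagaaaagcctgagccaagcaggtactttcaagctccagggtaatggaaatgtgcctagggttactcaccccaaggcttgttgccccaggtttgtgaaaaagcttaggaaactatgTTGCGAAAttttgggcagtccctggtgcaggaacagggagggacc
The match, TTGCGAAA, lies 45 to 38 bases before the start. TTGCNNAA occurs on either strand in 9.6% of all windows and in 4 of the 26 members (C1s1, C3, C9 and C5ar2). Among members with a window, it occurs in 2 of the 16 called higher in liver and 1 of the 8 called higher in aorta. Members were again counted by any of their windows, so these shares are not like for like.

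The terminal pathway builds the membrane attack complex from C5 (gene Hc), C6, C7, the 3 chains of C8 and C9. Of its 7 genes, 6 were higher in liver and C7 alone was higher in aorta. Hc gave 6 counts over the 3 HuBL aortas and 80926 over the 4 HuBL livers, at 1416 to 1919 CPM in the 8 livers. C8b gave 0 counts in all 6 aortas against 19561 in HuBL liver, so its mean was at least 31132-fold higher there by the same 3-count limit, and C8a gave 12 counts over the HuBL aortas against 47069 in HuBL liver. C8g, the small chain whose gene is on another chromosome, averaged 0.378 ± 0.0656 CPM in HuBL aorta and 467 ± 63.5 CPM in HuBL liver. C6 averaged 4.65 ± 1.32 CPM in HuBL aorta and 288 ± 30.9 CPM in HuBL liver.

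C7, which gives the assembling complex its hold on membranes, stood at 112, 130 and 112 CPM in HuBL aorta and at 215, 82.5 and 99.8 CPM in BT3xHuBL aorta. The livers held 0.237, 0.382, 2.86 and 0.909 CPM (HuBL) and 3.05, 1.15, 1.45 and 1.12 CPM (BT3xHuBL). Aorta and liver were far apart in every library, with a fitted log2 difference of 6.77 (SE 0.43, adjusted p = 1.7e-06, edgeR) in HuBL and 6.25 (SE 0.47, adjusted p = 3.5e-06) in BT3xHuBL. Without HuBL liver replicate 3 the former became 7.75. C6 and C7 are neighbours on chromosome 15, 173.8 kb apart, and had opposite tissue orders. In each other pair of called members examined as neighbours (the C1q genes, C2, Cfb and C4b, C8a and C8b, C8g and Fcna, C5ar1 and C5ar2) the tissue orders were alike. In aorta C7 was thus the only member of the membrane attack complex above 10 CPM in any library.

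The C8a promoter is printed as an example of a gene near 0 in aorta, with a match to GTTAAT, the half-site of the hepatocyte factor HNF1, in capitals.
C8a, chr4:104876399-104876648, reverse strand: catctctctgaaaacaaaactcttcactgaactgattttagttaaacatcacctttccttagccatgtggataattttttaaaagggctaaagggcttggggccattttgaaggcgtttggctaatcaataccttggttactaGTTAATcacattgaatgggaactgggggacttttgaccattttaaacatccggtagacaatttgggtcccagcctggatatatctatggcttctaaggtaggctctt
The match lies 107 to 102 bases before the start. GTTAAT occurs on either strand in 6.4% of all windows and in 8 of the 26 members (C1ra, Hc, C7, C8a, C8b, Cfp, C4bp and Vtn), among them 6 of the 16 members called higher in liver that have a window and 2 of the 8 called higher in aorta. The TATA box TATAAA was searched as well. It occurs in 12.4% of all windows and in 4 of the 26 members, 2 of the 16 and 2 of the 8. Here too a member was counted if any of its windows matched, so its share cannot be set directly against that of single windows.

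Regulators keep the cascade from host cells: C1 inhibitor (Serping1) blocks C1r and C1s, C4-binding protein (C4bp) and factor I (Cfi) inactivate C4b and C3b, Cd55 breaks up convertases, Cd59a blocks C9, and clusterin (Clu) and vitronectin (Vtn) hold the terminal complex in solution. Of these 7, 5 were higher in liver and 2 were not called. Clu was the most abundant complement transcript of aorta, at 2229, 2305 and 2034 CPM (HuBL) and at 2052, 1780 and 2413 CPM (BT3xHuBL), and it stood at 2409, 2202, 2110 and 1863 CPM in HuBL liver and 1940, 2304, 1960 and 2899 CPM in BT3xHuBL liver. All 4 groups overlapped, and the fitted log2 difference was 0.01 (SE 0.13, adjusted p = 0.94, edgeR) in HuBL and -0.16 (SE 0.20, adjusted p = 0.47) in BT3xHuBL. Scaled to library totals alone, a setting that moves the median of all features from 0.10 to 0.85 in HuBL and from 0.04 to 0.79 in BT3xHuBL, Clu was called higher in aorta (0.77 and 0.60). Cd55 averaged 11 ± 0.764 CPM in HuBL aorta and 9.97 ± 1.97 CPM in HuBL liver, and it too was called under that scaling only (0.87 and 0.91).

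Vtn was the second most abundant complement transcript of liver and nearly absent from aorta. It stood at 4318, 3707, 3316 and 3228 CPM in HuBL liver and at 2980, 3629, 3520 and 5280 CPM in BT3xHuBL liver, against 0.198 to 0.942 CPM in the 6 aortas. C4bp gave 2 counts over the HuBL aortas and none over the BT3xHuBL aortas, against 50826 and 51205 in the livers. Cfi averaged 2.53 ± 0.266 CPM in HuBL aorta and 1103 ± 141 CPM in HuBL liver. Serping1 was substantial in both tissues, at 359 ± 43.2 CPM in HuBL aorta and 1510 ± 148 CPM in HuBL liver (-2.09, SE 0.14, adjusted p = 5.2e-08, edgeR). Cd59a, anchored on the cell surface, averaged 50.7 ± 5.75 CPM in HuBL aorta and 102 ± 12.8 CPM in HuBL liver (-1.03, SE 0.12, adjusted p = 6.2e-06). With library totals alone the calls of C1ra were lost in both genotypes (-0.17 in HuBL and 0.07 in BT3xHuBL), and those of Cd59a (0.08) and C4b (-0.33) in BT3xHuBL.

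Anaphylatoxin receptors sense the C3a and C5a fragments on leukocytes. All 3 were higher in aorta, with a summed level of 241 to 303 CPM there and 5.95 to 15.3 CPM in liver. C3ar1 averaged 202 ± 5.56 CPM in HuBL aorta and 4.33 ± 0.414 CPM in HuBL liver (5.54, SE 0.10, adjusted p = 3.8e-12, edgeR). C5ar1 averaged 35.9 ± 5.11 and 0.817 ± 0.515 CPM (5.42, SE 0.26, adjusted p = 4.7e-09). C5ar2, whose gene lies 2.6 kb from C5ar1 on chromosome 7, averaged 8.81 ± 0.807 and 2.62 ± 0.24 CPM, a far smaller difference (1.73, SE 0.17, adjusted p = 1.4e-06). Per Csf1r count, C3ar1 reached 0.967 to 1.41 in aorta and 0.0861 to 0.191 in liver, so C3ar1 exceeded Csf1r in its tissue difference. The macrophage marker Cd68, whose levels are given above, was also far higher in aorta, and C3ar1 was not set against it. For C1qa the direction depended on the marker, so the result for C3ar1 is stated for Csf1r only.

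Summed over the 33 genes, complement transcripts made up 6648 to 8984 CPM of aorta libraries and 24060 to 41888 CPM of liver libraries. Clu (28.7%), C3 (20.4%), C1qb (10.1%) and C4b (9.27%) led the aorta sum, and C3 (32.0%), Vtn (12.7%), Clu (7.51%) and Cfb the liver sum. The C1 complex took 22.9 to 28.8% of the sum in aorta and 1.00 to 1.85% in liver. The terminal pathway took 1.26 to 2.51% in aorta and 12.2 to 18.2% in liver. Regulators took similar shares, 28.8 to 38.6% in aorta and 30.8 to 35.6% in liver, through Clu in the former and through Vtn, Clu, Serping1, Cfi and C4bp in the latter.

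**Figure D3:**
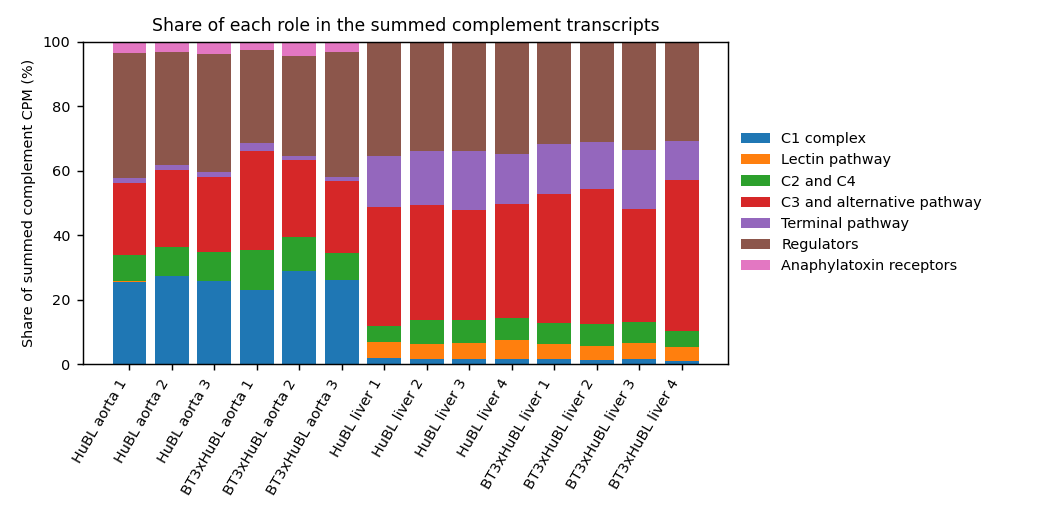
Share of each role in the summed CPM of the 33 complement genes, with a bar per library. The C1 complex takes 22.9 to 28.8% in aorta and at most 1.85% in liver, and the terminal pathway at most 2.51% in aorta and 12.2 to 18.2% in liver.

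The second comparison asked whether complement transcripts differed between BT3xHuBL and HuBL within aorta. Of the 33 members, 26 passed the count filter, and Hc, C8a, C8b, C9, Mbl1, Mbl2 and C4bp did not. None of the 26 was called (edgeR adjusted p = 0.9999 for each), and 4 of 15400 features were called in all (0.026%). DESeq2 and limma-voom called none of the 26 either. At an unadjusted p under 0.05, 1 member passed against 4.08% of all features. It was Cfp, whose values are given above: all 3 BT3xHuBL aortas exceeded all 3 HuBL aortas (background 9.36% of features without overlap, 5.08% in this direction), by 0.16 on the log2 scale (SE 0.07). No other member's groups were free of overlap.

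Of the 26 members, 21 lay above 0, with a median log2 difference of 0.11, whereas 48.5% of all features lay above 0 with a median of -0.004. Cell type lists moved with genotype as well: all 10 white adipocyte genes lay above 0 (median 0.34, 3 with an unadjusted p under 0.05), and all 8 B and plasma cell genes tested lay below 0 (median -1.5, 6 with an unadjusted p under 0.05). None of these was called, and their part in the complement values was not tested. BT3xHuBL aorta replicate 1 moved with this shift. It was the highest of the 6 aortas for 16 of the 26 members, among them C3, C4b, C2, Cfb, C6, C7, Cfd and Fcna, and for 16.8% of all features. C4b stood at 1062 CPM in it against 531 to 707 CPM in the other aortas, C7 at 215 against 82.5 to 130 CPM, C6 at 9.82 against 3.73 to 6.16 CPM, and Fcna at 8.65 against 2.90 to 5.18 CPM. Leaving out any aorta but this one gave medians of 0.04 to 0.22, with 17 to 21 of 26 members above 0. The highest median came without HuBL aorta replicate 2, itself the highest HuBL aorta for 19 of 26 members. Without BT3xHuBL aorta replicate 1, 15 of 26 members lay above 0 with a median of 0.01. The difference of C3 went from 0.30 to -0.001, that of C4b from 0.40 to 0.13, and that of C7 from 0.16 to -0.38 (unadjusted p = 0.0075, adjusted p = 0.999, edgeR).

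Values of other cell types moved with this library too. The summed level of 10 white adipocyte genes was 952 CPM in it and 539 to 822 CPM in the other aortas, with Adipoq at 51.8 against 16.8 to 31.4 CPM. Summed monocyte and neutrophil genes (157 against 68.6 to 119 CPM), acute phase genes (2333 against 1568 to 2027 CPM) and hepatocyte genes (88.1 against 30.6 to 78 CPM) were also at their highest there. The hepatocyte list was divided: Alb, Apoa1 and Ttr gave 0 counts in this library, whereas Ahsg was at its highest, 8.12 against 3.79 to 5.57 CPM. Summed B and plasma cell genes (47.7 against 67.4 to 462 CPM) and Kupffer cell genes (1023 against 1077 to 1269 CPM) were at their lowest. The sum of the Kupffer cell list was not specific to liver, averaging 1155 CPM over all aortas against 784 CPM over all livers. Most of its genes were higher in liver. Of the 8, 5 were called lower and 2 higher in aorta in each genotype, with medians of -2.77 in HuBL and -2.18 in BT3xHuBL. The shares of all features called in each direction are given above. Clec4f, a gene of this list, was absent from every aorta. Of its 7 genes tested for genotype in aorta, 6 lay above 0 (median 0.48), with none called. Macrophage markers were divided: their sum was at its lowest, 4632 CPM against 5306 to 6289 CPM, as was Cd68, whereas Csf1r was at its highest, 198 CPM against 154 to 179 CPM. Summed coagulation, fibroblast, smooth muscle, endothelial and T cell genes were within the range of the others. Their part in the complement values was not tested.

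**Figure D4:**
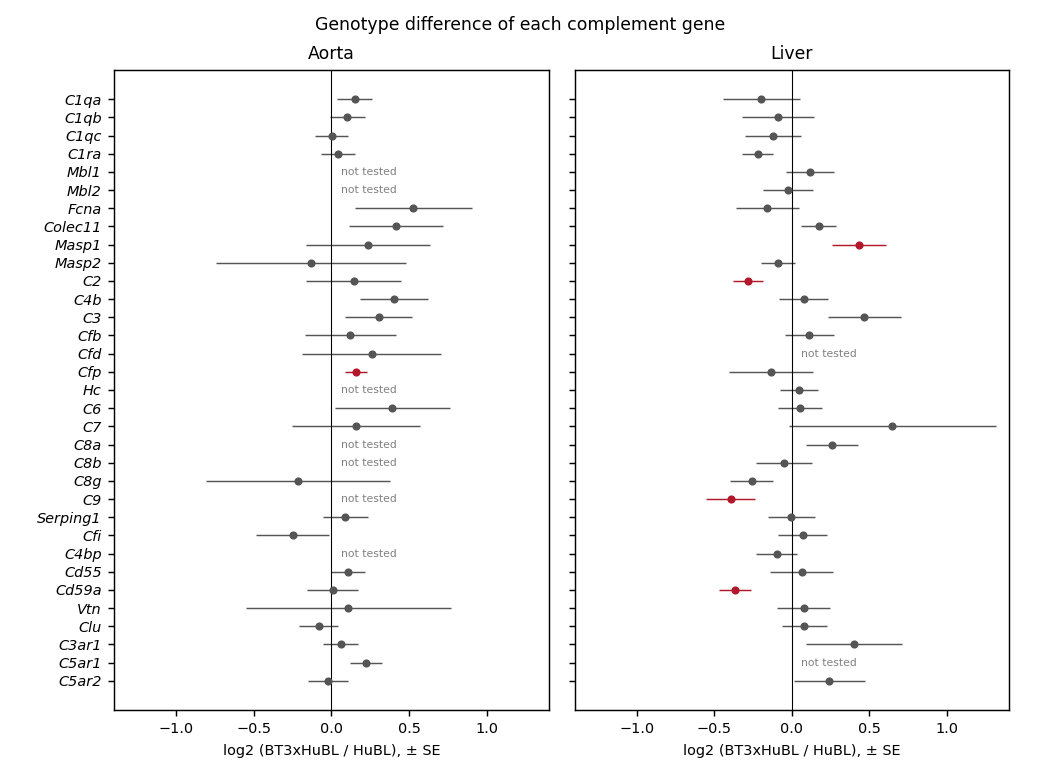
Fitted log2 difference of BT3xHuBL over HuBL for each complement gene in aorta (left) and liver (right), with bars of 1 SE. Red points have an unadjusted p under 0.05 (Cfp in aorta, and Masp1, C2, C9 and Cd59a in liver), and no point passes after adjustment.

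In liver, 31 members were tested, with Cfd and C5ar1 left out by the filter. None was called, and neither was any of the 12453 features (0%) at an adjusted p under 0.05 by edgeR. DESeq2 and limma-voom also called no member. At an unadjusted p under 0.05, 4 members passed by edgeR, 6 by DESeq2 and 5 by limma-voom, against 11.1% of all features by edgeR. Of the 31, 16 lay above 0, with a median of 0.05, against 51.8% of all features above 0 with a median of 0.01. Beside them, all 8 fibroblast genes tested (median 0.64) and 14 of 16 acute phase genes (median 0.38) lay above 0, and all 7 T cell genes (median -1.11) and all 8 B and plasma cell genes (median -0.44) lay below 0, with none called; their part was not tested.

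Cd59a had the smallest p. It stood at 116, 95.1, 88.1 and 109 CPM in HuBL liver and at 78, 70.3, 83.6 and 85.5 CPM in BT3xHuBL liver. The genotypes did not overlap, and the difference was -0.37 (SE 0.10, adjusted p = 0.29, edgeR). C2 stood at 260, 301, 282 and 259 CPM in HuBL and at 220, 253, 207 and 227 CPM in BT3xHuBL, again without overlap (-0.28, SE 0.10, adjusted p = 0.34). Such separation with lower BT3xHuBL values was seen for these 2 members and for 3.33% of all features, and separation in either direction for 6.49%.

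C9 stood at 767, 793, 756 and 507 CPM in HuBL liver and at 435, 602, 599 and 517 CPM in BT3xHuBL liver, where the lowest HuBL library lay among the BT3xHuBL values (-0.39, SE 0.16, adjusted p = 0.40, edgeR). Masp1 stood at 26.3, 42.2, 48.9 and 38.7 CPM in HuBL and at 45.1, 61.4, 51.9 and 53 CPM in BT3xHuBL, with 1 HuBL library inside the BT3xHuBL range (0.43, SE 0.17, adjusted p = 0.41). The other members of the classical pathway did not pass even before adjustment: C1ra was at -0.22 (SE 0.10), C1qa, C1qc and C1qb at -0.20, -0.12 and -0.09, and C4b at 0.08 (SE 0.16). C1s, outside the list, did pass before adjustment, at -0.21 (SE 0.09, unadjusted p = 0.038, adjusted p = 0.43, edgeR). Its genotypes did not overlap, at 861 to 947 CPM in HuBL liver and 730 to 818 CPM in BT3xHuBL liver.

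BT3xHuBL liver replicate 4 stood apart. It was the highest of the 8 livers for 13 of the 31 members (C3, C8a, Cfb, Cfi, Mbl1, Mbl2, Serping1, C4bp, Cd55, Vtn, Clu, Fcna and Colec11) and for 15.7% of all features. C3 reached 16824 CPM in it against 6712 to 11400 CPM in the others, C8a 1652 against 814 to 1075 CPM, Vtn 5280 against 2980 to 4318 CPM, and Cfb 2745 against 1721 to 2341 CPM. Hc (1776 CPM), C9 (517 CPM) and C6 (232 CPM, the lowest of the 8) were not raised in it. Acute phase genes moved with the library: their sum over 16 genes was 87741 CPM in it against 35519 to 50726 CPM, Saa1 was at 3036 against 88.4 to 164 CPM, Saa2 at 3242 against 57.7 to 135 CPM, and Lcn2 at 724 against 22.8 to 69.2 CPM. Summed coagulation genes (22681 against 14726 to 18672 CPM) and endothelial genes (112 against 68.7 to 90.4 CPM) were also at their highest in it, and macrophage genes (465 against 511 to 870 CPM) and T cell genes (7.55 against 9.75 to 31.5 CPM) at their lowest. Their part in the complement values was not tested. Without this library the members' median went from 0.05 to -0.11 with 10 of 31 above 0, and the differences of C3 went from 0.47 to 0.19, of C8a from 0.26 to 0.06, of Clu from 0.08 to -0.05 and of Vtn from 0.08 to -0.11.

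**Figure D5:**
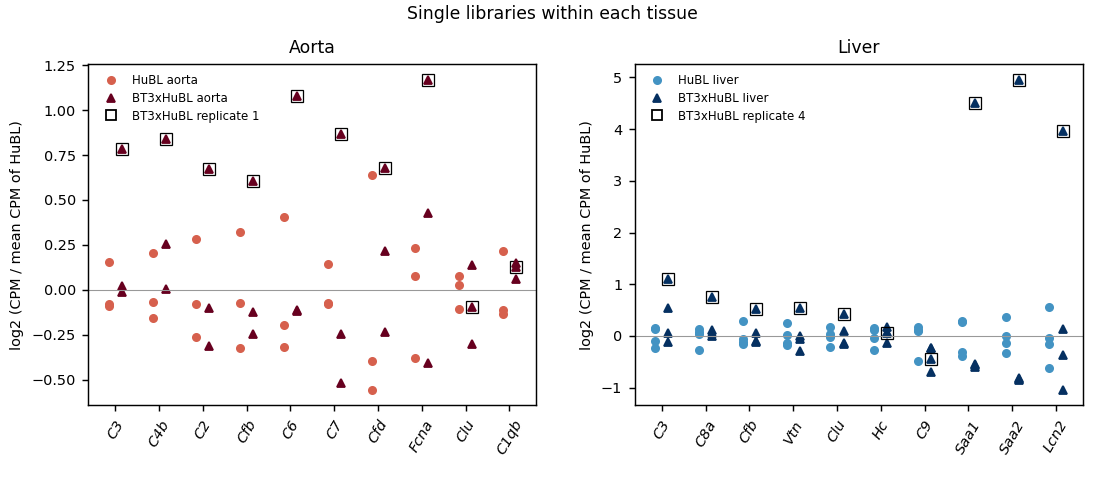
Level of chosen genes in each library relative to the mean of HuBL in the same tissue, on a log2 scale, with circles for HuBL and triangles for BT3xHuBL. Squares frame BT3xHuBL aorta replicate 1 (left) and BT3xHuBL liver replicate 4 (right), which are the highest for 16 of 26 and 13 of 31 tested members, and Saa1, Saa2 and Lcn2 are acute phase genes shown beside the liver members.

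The difference between the genotype effects of the 2 tissues was tested for 24 members. None was called by edgeR, DESeq2 or limma-voom, as for the 11951 features overall (0% by edgeR), and none passed at an unadjusted p under 0.05 by any of these tools (8.61% of all features by edgeR). The smallest p was that of Cd59a (0.39, SE 0.20, unadjusted p = 0.067, adjusted p = 0.61, edgeR). With BT3xHuBL aorta replicate 1 and liver replicate 4 both left out, a setting added after the data were seen, no member was called and the 31 tissue calls in BT3xHuBL numbered 31 again.

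Of 30 further complement genes (among them complement receptors, collectins, pentraxins, carboxypeptidases), 27 were tested between the tissues in HuBL. At an adjusted p under 0.05 (edgeR), 9 were higher and 17 lower in aorta, against 44.5% and 39.2% of all features. In BT3xHuBL 26 were tested, 9 higher and 16 lower, against 42.5% and 39.5% of all features. None was called for genotype, of 22 tested in aorta (median -0.06) and 24 in liver (median -0.03). In aorta 0 of the 22 had an unadjusted p under 0.05 (edgeR). The smallest belonged to the scavenger collectin Colec12, at 210, 201 and 206 CPM in HuBL aorta and at 227, 251 and 219 CPM in BT3xHuBL aorta (0.17, SE 0.08, adjusted p = 0.9999, edgeR). Its groups did not overlap, as was so for 9.36% of all features in aorta, 5.08% in this direction.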

How the data were processed

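RNA from 14 libraries was prepared with Qiagen RNeasy and Lexogen QuantSeq V2, per the labels' protocols. The authors deposited whole-number read counts per gene, made with HTSeq 2.0 on GRCm38 per the submitters' processing notes; the aligner, annotation and strand setting were not given in the sources used here. Coordinates in the tables did not match GRCm38 gene starts (0 of 33 members within 1000 bases), so positions are from GENCODE M21 and promoters from RefSeq (GRCm38.p6), where 26 of the 34 genes have a window.

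From the counts, differences were fitted with edgeR 4.0.16 (quasi-likelihood test, robust, TMM, default filter on low counts, prior count 0.125, two-sided, Benjamini-Hochberg over all features, threshold 0.05) in R 4.3.3 on the libraries compared; SE is the log2 difference over the root of F. CPM used TMM factors over all 14 libraries (1.30 to 1.36 in aorta, 0.744 to 0.876 in liver). Limits for 0 counts take 3 counts over a group and cover counting error only. Replicates differed beyond sampling noise in each group (chi-square per degree of freedom 12.2 to 75.7), so no library was counted as a copy. The edgeR step was tested on simulated data. Alternatives were RLE scaling, library totals, no filter, DESeq2 1.42.0, limma-voom (limma 3.58.1), no robust weights, a fit of all libraries, the replicate number as a block, and each library left out. Figures used matplotlib 3.10.9.

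The members and the gene lists were chosen with earlier results of these data known. Named genes were all members, with values in every library for those with an unadjusted p under 0.05 for genotype or interaction, for the 3 of highest mean level per tissue, and, of the 30 further complement genes, for genes of small p; some results of that list are not reported here. C7, Cfd and the genes that moved with single libraries were named after their values were seen. Motifs searched in promoters were chosen in the same way.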

Additional observations from a re-analysis of the deposited data

Results flagged for a closer look

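In the 66 gene and liver group combinations of 4 libraries that were examined, 4 had 1 library far from the other 3; chance gives such a gap in about 1 in 20 groups. C8a was at 1652 CPM in BT3xHuBL liver replicate 4 and at 987 to 1071 CPM in the others of its group. C9 was at 507 CPM in HuBL liver replicate 4 and at 756 to 793 CPM in the other HuBL livers. C7 was at 3.05 CPM in BT3xHuBL liver replicate 1 and at 1.12 to 1.45 CPM in the others. Colec11 was at 23.2 CPM in BT3xHuBL liver replicate 2 and at 31.1 to 31.5 CPM in the others.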

How the results depend on the processing

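No member was called for genotype in aorta, in liver or for the interaction under any alternative, and 31 members were called between the tissues in each genotype under every alternative but library totals (32 in HuBL, 30 in BT3xHuBL). The number of all features called for genotype in aorta, 4, became 9 without the filter, 68 with DESeq2, 0 with limma-voom, 7 with all libraries in 1 fit, and 0 to 27 with a library left out (27 without BT3xHuBL aorta replicate 3, 0 without HuBL aorta replicate 2 or 3). In liver the 0 features became 127 with DESeq2, 5 with all libraries in 1 fit and 0 to 5 with a library left out (5 without BT3xHuBL liver replicate 2). For the interaction the 0 became 39 with DESeq2 and 0 to 4 with a library left out (4 without BT3xHuBL liver replicate 2). The cause of these shifts was not tested. Single members were followed only where their values were of small p, high level or singled out in the text. Among those, leaving out a library turned the sign of these log2 differences: in aorta C3 (-0.0010 to 0.45), C7 (-0.38 to 0.41), C1qc (-0.064 to 0.12) and Clu (-0.20 to 0.021), in liver Clu (-0.049 to 0.15) and Vtn (-0.11 to 0.18), between tissues in HuBL Clu (-0.057 to 0.067), and for the interaction C3 (-0.47 to 0.13). Members above 0 went from 21 to 15 without BT3xHuBL aorta replicate 1 and from 16 to 10 without BT3xHuBL liver replicate 4, so others turned as well. Clu in HuBL was -0.015 with RLE scaling and with DESeq2. With library totals, Clu (0.60), C1ra (0.072) and Cd59a (0.084) turned in BT3xHuBL.

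The labels do not say whether replicate numbers pair the libraries. Deviations of same-numbered libraries correlated at -0.056 to 0.131 in aorta (different numbers -0.13 to 0.145) and -0.041 to 0.149 in liver (-0.21 to 0.171). Between tissues the range was -0.0008 to 0.083 in HuBL (different numbers -0.081 to 0.074). In BT3xHuBL it was 0.053 to 0.088, above every pair of different numbers (-0.058 to 0.020). Whether aorta and liver of 1 number share an animal was not tested. With the number as a replicate block, 14 features were called in aorta and 10 in liver, Clu in HuBL tissues was -0.058, and the number of members called was the same.

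Depth limits the liver values of Cfd (12 counts in HuBL), C5ar1 (40) and C7 (51), and the aorta values of genes with 0 to 16 counts a group.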

Other observations

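C1rb, a near-identical copy of C1ra, stood at 0.886 to 1.58 CPM in the 6 aortas and at 0 in all 8 livers, whereas C1ra was higher in liver. C4a, the copy of C4b, was higher in liver in both genotypes, and its 2 lowest liver libraries were BT3xHuBL replicates 4 (14.3 CPM) and 1 (15.4 CPM), against 32.7 to 64.4 CPM in HuBL liver. Integrin alpha M (Itgam), a chain of complement receptor 3, stood at 99.9 to 130 CPM in aorta and 1.57 to 4.61 CPM in liver. Vsig4, a receptor for C3 fragments on Kupffer cells, stood at 1.01 to 4.70 CPM in aorta and 20.2 to 38.5 CPM in liver. The complement receptor gene Cr2 was at or under 1.39 CPM in every library.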
